A study of Homo sapiens with 2 samples.

Results

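The anaphase-promoting complex (APC/C) and its regulators were described here by 10 genes in LNCaP cells, a human prostate carcinoma line, with KDM4A knocked down. They were 3 core subunits (CDC16, CDC23 and CDC27), 2 co-activators (CDC20 and FZR1), 1 inhibitor (FBXO5), 2 ubiquitin-conjugating enzymes (UBE2C and UBE2S), and securin and separase (PTTG1 and ESPL1). The members were chosen by name, and every probe set that the platform annotation gives to exactly 1 gene was taken where that gene was a member. This gave 21 of 34880 such probe sets and all 10 members among 17689 genes, and 0 probe sets named a member together with another gene. The shKDM4A culture had received lentivirus with a short hairpin RNA against KDM4A, a histone H3 demethylase, and the control culture an empty pLKO.1 lentivirus, so the control carried no hairpin. Both were harvested 3 days after infection, and RNA was measured on Affymetrix Human Genome U133 Plus 2.0 arrays, 1 array in each group.

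The APC/C is the ubiquitin ligase that ends mitosis. A constant scaffold of core subunits is switched on by a co-activator, CDC20 at the onset of anaphase and FZR1 (CDH1) from late mitosis through G1, and takes ubiquitin from UBE2C, which starts the chain, and UBE2S, which extends it. FBXO5 (EMI1) holds the complex inactive from S phase until mitosis. Ubiquitination of securin releases separase, the protease that cuts cohesin and lets sister chromatids part, and loss of cyclins lets the cell leave mitosis.

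The 3 core subunits among the members and all other members but FZR1 lay on opposite sides of 0. The 3 core subunits were slightly higher in the shKDM4A array, at 1.21-fold to 1.26-fold. Of the 7 other members, 6 were lower, against 46.3% of all genes. CDC20, PTTG1 and UBE2C were at least 2-fold lower, at 6.97-fold, 5.55-fold and 3.72-fold. FZR1 was the exception, at 1.09-fold higher. Beyond the members, 10 other APC/C subunits were measured, and 6 of them lay below 0, against 46.3% of all genes.

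Every value below is a log2 difference, shKDM4A minus control. The deposited values were centred on the mean of both arrays in each row, so the value in 1 array is the negative of that in the other, and signal levels and detection were lost. With 1 array in each group there was no replicate check and no test; precision is limited by how few arrays there were. A gene's value is the mean over its probe sets, and each SD describes how those probe sets scatter and says nothing of other cultures. Pooled over genes with several probe sets, this SD was 0.33, and over all genes the median was 0.020, with quartiles of -0.14 and 0.18. Of all genes, 46.3% lay below 0, the share to set beside each count of genes below or above 0. A gene was called when it differed at least 2-fold, a rule of size. KDM4A itself read -0.90 and -1.46 on its 2 probe sets, a mean 2.26-fold lower. Hybridisation spike-ins, foreign transcripts given to both arrays alike, lay at -0.0099 ± 0.045 (SD, n = 18 probe sets). The identity of the cells could not be checked by level. Of 7 measured markers of luminal prostate cells 6 lay above 0, and they ran from -0.76 (TMPRSS2) to 0.48 (FOLH1), with KRT8 at 0.41.

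Of the 10 members, 3 were at least 2-fold lower, against 1.44% of all genes (255 of 17689), and 0 were at least 2-fold higher, against 1.16%. At 1.5-fold, 6 members were lower and 0 higher, against 4.38% and 4.3% of all genes. At 3-fold the same 3 genes as at 2-fold were lower, against 0.458% of all genes. By probe set, 4 of 21 were at least 2-fold lower, against 2.39% of the 34880. The median over the 10 members was -0.65. Without probe sets of the _x_at and _s_at kinds, CDC20, PTTG1, UBE2S and FBXO5 have no value, and 1 of the 6 members left, UBE2C, was at least 2-fold lower. All 13 probe sets of the 4 members above 0 lay between 0.012 and 0.66, and all 8 probe sets of the 6 members below 0 lay between -2.80 and -0.27. A gene's place above or below 0 follows from those same probe sets, and 4 of the 10 members have 1 probe set. The lack of overlap was thus largely set in advance and gives no support.

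**Figure D1:**
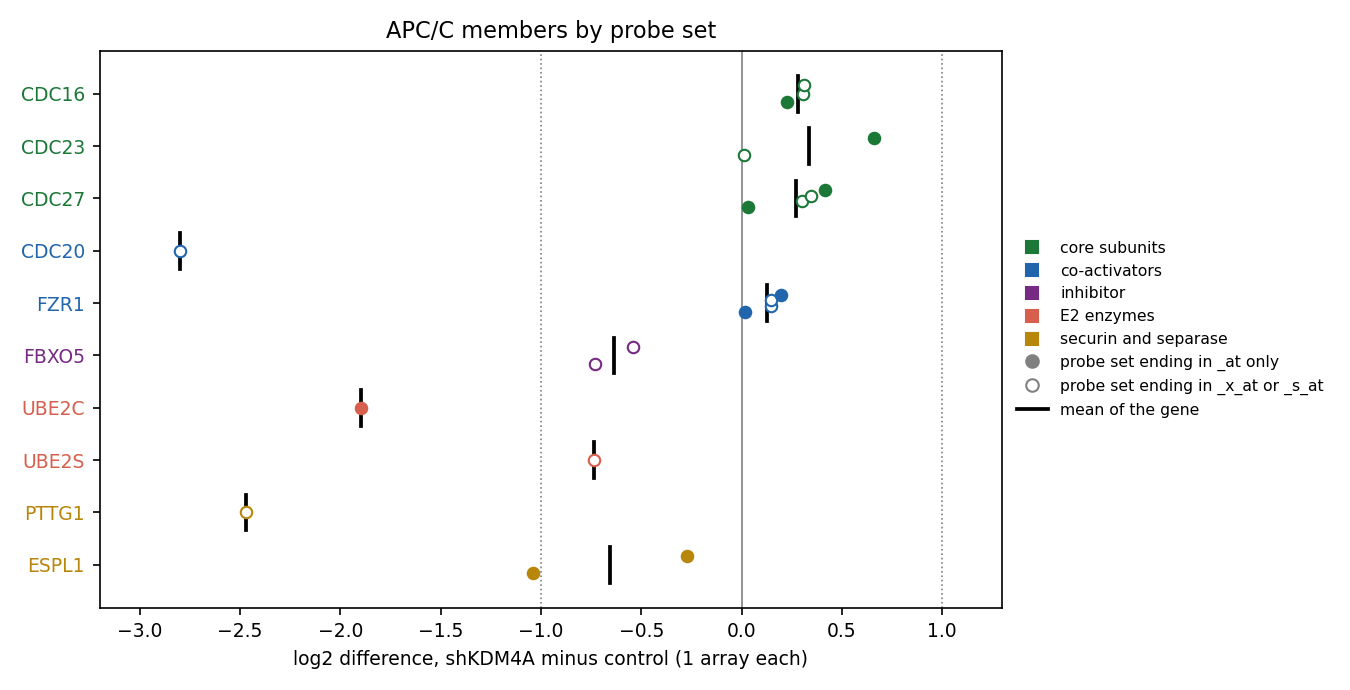
Log2 difference (horizontal axis, shKDM4A minus control, 1 array each) of every probe set of the 10 members, coloured by role; open circles are probe sets whose name ends in _x_at or _s_at (able to match more than 1 transcript), black bars are gene means, and dotted lines mark 2-fold. The 9 probe sets of the core subunits lie between 0.012 and 0.66, and CDC20, PTTG1 and UBE2C lie left of the 2-fold line on 1 probe set each.

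CDC16, CDC23 and CDC27 belong to the tetratricopeptide repeat subunits that form the arch of the complex, and CDC27 and CDC23 carry docking surfaces for the co-activators. CDC16 read 0.14 in the shKDM4A array against -0.14 in the control array, a difference of 0.28 ± 0.048 (SD, n = 3 probe sets) that ran from 0.22 to 0.31. CDC27 read 0.14 against -0.14, a difference of 0.27 ± 0.17 (SD, n = 4 probe sets) that ran from 0.034 to 0.41. CDC23 read 0.17 against -0.17, a difference of 0.34 ± 0.46 (SD, n = 2 probe sets). The probe sets of CDC23 disagreed in size, at 0.012 and 0.66, so its spread exceeded its mean, whereas the probe sets of CDC16 lay close together. All 9 probe sets of the core subunits lay above 0, with a median of 0.31. The SD over the 3 gene means was 0.034, well inside the pooled SD between probe sets. CDC16 and CDC27 themselves lay within that pooled SD, 0.33, of 0. Against all genes the core subunits stood on the upper flank without reaching the size rule, since 12.4% of genes lay as high as CDC23, 16.0% as high as CDC16 and 16.6% as high as CDC27.

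Promoter windows from 250 bases before to 50 bases after a start were taken from RefSeq (GRCh38.p14), which matched 9 of the 10 members, all but UBE2C. That of CDC23 (chr5:138213274-138213573, minus strand) is shown as the core subunit with the highest value, in the orientation of the gene. Capitals mark the CHR (cell cycle genes homology region, TTTGAA), its variant (TTTAAA) and the CCAAT box (CCAAT), on either strand, here and in the windows below.
CDC23: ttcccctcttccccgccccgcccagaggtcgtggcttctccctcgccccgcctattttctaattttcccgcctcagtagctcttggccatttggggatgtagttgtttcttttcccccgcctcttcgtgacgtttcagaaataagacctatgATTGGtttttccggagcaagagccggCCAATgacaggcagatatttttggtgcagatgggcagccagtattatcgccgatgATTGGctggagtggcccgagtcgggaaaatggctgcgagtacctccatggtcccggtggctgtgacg
The window holds 3 CCAAT boxes, at -98, -72 and -17 from the start, and neither form of the CHR. At its other end, CDC23 overlaps KIF20A, a mitotic kinesin gene, in the RefSeq annotation. KIF20A, picked out after its value was seen, lay at -3.13, so these overlapping genes differed by 3.46 on the log2 scale.

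The co-activators gave the widest contrast within a role. CDC20, the activator that starts anaphase, read -1.40 in the shKDM4A array against 1.40 in the control array on its only probe set, a difference of -2.80. Among 17689 genes it ranked number 10 from the lowest. FZR1, which takes over from CDC20 at the end of mitosis, read 0.063 against -0.063, a difference of 0.13 ± 0.078 (SD, n = 4 probe sets). All 4 probe sets of FZR1 lay within 0.016 and 0.20, and FZR1 was the only member inside the quartiles of all genes. CDC20 was thus lower than FZR1 by a gap of -2.93, beside a pooled SD between probe sets of 0.33. CDC20 has no spread of its own on 1 probe set, and with 1 array in each group the gap has no replicate check. The window of CDC20 (chr1:43358731-43359030, plus strand) is shown for the member with the lowest value.
CDC20: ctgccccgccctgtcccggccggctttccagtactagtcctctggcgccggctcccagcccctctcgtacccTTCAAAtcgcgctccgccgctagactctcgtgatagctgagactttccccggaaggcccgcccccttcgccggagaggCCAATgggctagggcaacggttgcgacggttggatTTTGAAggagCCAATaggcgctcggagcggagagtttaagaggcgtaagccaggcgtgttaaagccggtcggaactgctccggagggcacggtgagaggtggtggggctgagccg
It holds a CHR at -65 on the gene's strand, flanked by CCAAT boxes at -100 and -55, and another CHR at -178 on the opposite strand. FZR1 overlaps MFSD12, a transporter gene at 0.090, and has 2 annotated starts. The window of the upstream one has a CHR at -226 and no CCAAT box, and that of the downstream one has neither.

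FBXO5, the inhibitor that blocks substrate access to the APC/C, read -0.32 in the shKDM4A array against 0.32 in the control array. Its difference was -0.64 ± 0.13 (SD, n = 2 probe sets), 1.55-fold lower, with probe sets at -0.73 and -0.54. It did not reach the size rule, although 3.71% of genes lay as low or lower. Both probe sets can match several transcripts. FBXO5 has 2 annotated starts, and the window of the downstream one (chr6:152982992-152983291, minus strand) is shown because it holds the motifs that the upstream one lacks.
FBXO5: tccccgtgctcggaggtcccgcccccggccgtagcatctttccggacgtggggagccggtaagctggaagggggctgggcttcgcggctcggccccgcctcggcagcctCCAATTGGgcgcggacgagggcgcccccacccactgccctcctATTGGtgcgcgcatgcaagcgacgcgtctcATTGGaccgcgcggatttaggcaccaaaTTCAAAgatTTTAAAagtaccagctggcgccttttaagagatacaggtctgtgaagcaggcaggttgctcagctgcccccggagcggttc
It has a CHR at -40, the variant at -31 and 4 CCAAT boxes between -141 and -68, of which the ones at -141 and -138 overlap. The upstream window holds none of these.

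Both ubiquitin-conjugating (E2) enzymes among the members were lower. UBE2D1, listed here with other modulators of the APC/C, had no value. UBE2C, which adds the first ubiquitin to a substrate, read -0.95 in the shKDM4A array against 0.95 in the control array, a difference of -1.89 and number 51 from the lowest of all genes. UBE2S, which lengthens the chain, read -0.37 against 0.37, a difference of -0.74 that was 1.67-fold lower and short of the size rule. Each has 1 probe set. That of UBE2C is the only one of the 3 called members not marked as able to match several transcripts. Among 25 measured E2 genes these were the lowest and the next lowest. Of the 23 E2 genes on the list of other ubiquitin E2 enzymes, 0 were 2-fold lower and 0 were 2-fold higher. The shares of all genes were 1.44% and 1.16%. On that list 16 lay above 0, with a median of 0.15. The other 7 lay below 0, as did 46.3% of all genes. The members of that list farthest from 0 were UBE2E3 (-0.61), UBE2N (0.60 ± 0.11, 3 probe sets), whose chains serve signalling and DNA repair, and CDC34 (0.47 ± 0.47, 2 probe sets), which serves the SCF ligases. UBE2S overlaps RPL28, a ribosomal protein gene without a value of its own here, in the RefSeq annotation. The window of UBE2S holds a CCAAT box at -191 and neither form of the CHR.

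Securin and separase were both lower, by unequal amounts. PTTG1, the securin that holds separase inactive until anaphase, read -1.24 in the shKDM4A array against 1.24 in the control array, a difference of -2.47 and number 21 from the lowest of all genes. It rests on 1 probe set of the _x_at kind, which can match related transcripts. PTTG3P, a securin paralog without introns, lay at -0.98 on 1 probe set, and how much the 2 genes share signal was not tested. ESPL1, separase, read -0.33 in the shKDM4A array against 0.33 in the control array, a difference of -0.66 ± 0.54 (SD, n = 2 probe sets). Its probe sets disagreed in size, and only the one at -1.04 passes 2-fold, the other reading -0.27. PTTG1 was lower than ESPL1 by a gap of -1.82. The windows of PTTG1 (chr5:160421605-160421904, plus strand, the upstream of 2 overlapping windows) and ESPL1 (chr12:53268049-53268348, plus strand) are shown so that the pair can be set beside CDC20 and CDC23.
PTTG1: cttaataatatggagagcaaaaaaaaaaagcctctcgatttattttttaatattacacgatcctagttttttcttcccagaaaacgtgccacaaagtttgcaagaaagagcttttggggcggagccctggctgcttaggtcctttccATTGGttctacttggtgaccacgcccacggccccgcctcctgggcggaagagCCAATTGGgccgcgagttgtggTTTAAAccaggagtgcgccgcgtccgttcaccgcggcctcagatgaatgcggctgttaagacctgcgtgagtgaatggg
ESPL1: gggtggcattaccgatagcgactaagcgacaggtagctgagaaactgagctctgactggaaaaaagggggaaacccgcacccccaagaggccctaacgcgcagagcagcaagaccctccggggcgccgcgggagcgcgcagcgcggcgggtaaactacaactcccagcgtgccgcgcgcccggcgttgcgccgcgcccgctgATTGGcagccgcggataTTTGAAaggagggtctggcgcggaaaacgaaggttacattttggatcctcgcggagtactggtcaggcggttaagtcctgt
PTTG1 has the CHR variant at -29 and CCAAT boxes at -103, -51 and -48, the last pair overlapping. ESPL1 has a CHR at -31 and a CCAAT box at -48.

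Set side by side, the windows of members below 0 and above 0 differed in where the CHR lies. A CHR or its variant within the last 100 bases before a start, together with a CCAAT box anywhere in the window, was found for 4 of the 5 members below 0 that have a window (CDC20, PTTG1, FBXO5 and ESPL1, not UBE2S). It was found for 0 of the 4 members above 0. Of all 27305 RefSeq genes with a window, 4.23% hold that combination and 10.5% have a CHR or variant that close to a start. At any place in the window, a CHR or its variant was found for 4 of the 5 members below 0 and 2 of the 4 above 0. The share of all genes with a window was 27.9%. The variant reads the same on both strands, and no CHR or variant overlaps a CCAAT box in the members' windows. The distance was chosen after the windows had been seen, and a match describes the letters of a window, not a bound site. Among other APC/C substrates 9 of 23 genes with a window hold the combination, and among other APC/C subunits 0 of 11 do. Among spindle checkpoint genes 0 of 6 do, MAD2L1, which was at least 2-fold lower, included. CCAAT boxes alone were in the windows of 8 of the 9 members, against 39.7% of all genes with a window. An E2F site (TTTGGCGC, TTTCGCGC, TTTCCCGC or TTTGCCGC) was in the windows of CDC16 and CDC23, in no other member, and in 3.99% of all genes. An SP1 site (GGGCGG) was in those of 6 members, against 48.3% of all genes.

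**Figure D2:**
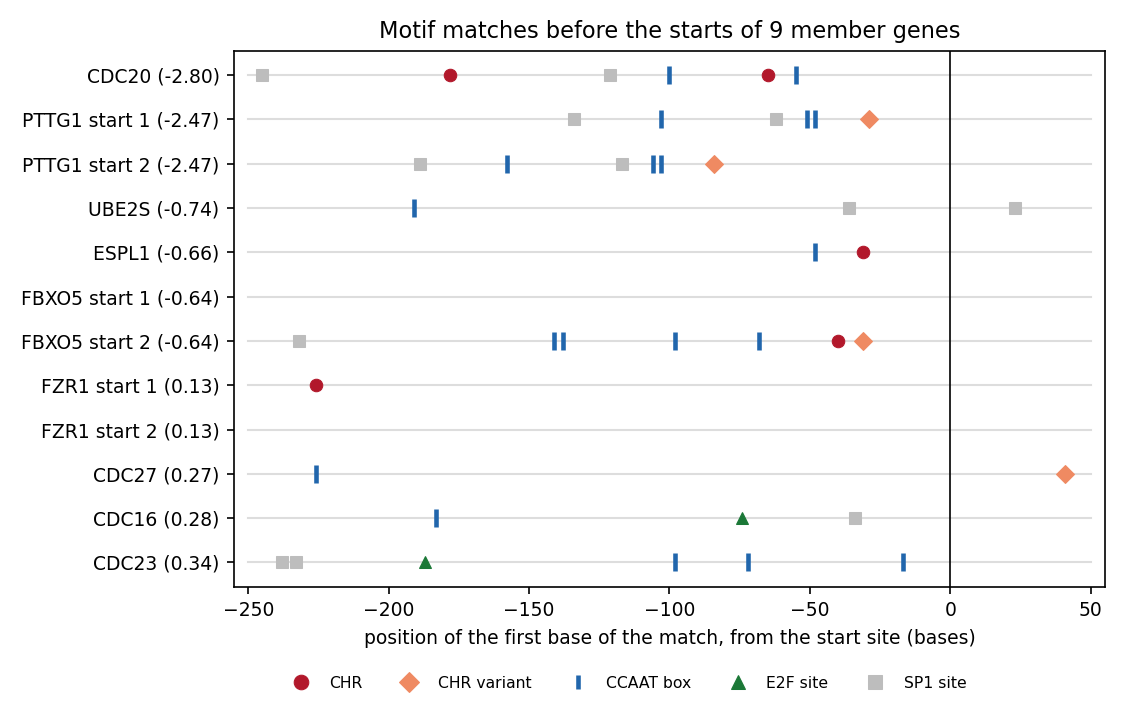
Positions of motif matches (horizontal axis, bases from the start site) in the windows of 9 members, ordered from the lowest to the highest log2 difference, which is given in brackets; symbols mark the CHR, its variant, CCAAT boxes, E2F sites and SP1 sites. In CDC20, PTTG1, ESPL1 and the downstream start of FBXO5 a CHR or variant lies within 100 bases before the start, whereas those of FZR1 and CDC27 lie at -226 and 41.

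Each role other than the core had a mean below that of the core subunits. The gap was -1.86 for securin and separase. The gap was -1.63 for the co-activators, -1.61 for the E2 enzymes and -0.93 for the inhibitor. The first 3 of these gaps differ by less than the pooled SD between probe sets, and their order changes with the choice of probe sets, so they cannot be ranked. The co-activator gap is an average of CDC20 and FZR1, which lay on different sides of 0. Ordered by difference, CDC20, PTTG1 and UBE2C were separated from the other members by more than the pooled SD between probe sets. CDC20 and PTTG1 differed from each other by about that SD. UBE2S, ESPL1 and FBXO5 lay closer together than it and cannot be ordered, nor can CDC27, CDC16 and CDC23.

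**Figure D3:**
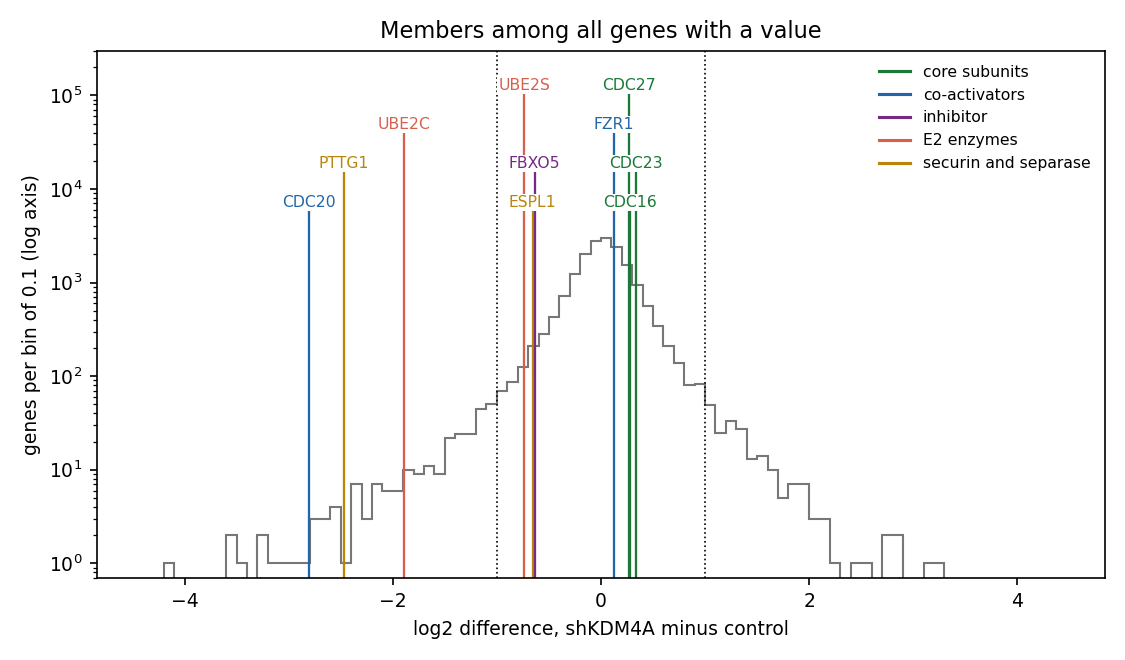
Distribution of the log2 difference over 17689 genes (outline, genes per bin of 0.1 on a log axis) with the 10 members as vertical lines coloured by role; line height only separates the labels, and dotted lines mark 2-fold. CDC20, PTTG1 and UBE2C lie in the lower tail, UBE2S, ESPL1 and FBXO5 on its shoulder, and the core subunits and FZR1 near the bulk of genes.

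The other subunits of the APC/C had a median near 0, at -0.036, with values spread to either side of it. Of 10 measured, 6 lay below 0 and 4 above, against 46.3% of all genes below 0. At least 2-fold lower were 0 and higher 0, against 1.44% and 1.16% of all genes. CDC26, the small subunit that stabilises CDC16, was farthest from 0, at 0.90 on 1 probe set. ANAPC4, a scaffold subunit, lay at -0.48 ± 0.044 (2 probe sets), and ANAPC5, its neighbour in the platform, at -0.47 ± 0.43 (6 probe sets). Over all 13 measured subunits, members included, the median was 0.077. CDC16, CDC23 and CDC27 thus lay above 0 within a complex whose subunits lay on either side of it.

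Other modulators of the APC/C were few. Of 4 measured, 1 was at least 2-fold lower and 0 higher, against 1.44% and 1.16% of all genes. USP37, the deubiquitinase that protects cyclin A from FZR1, was 2.02-fold lower (-1.02 ± 0.45, 3 probe sets, from -1.37 to -0.50). With the probe set closest to 0 it was not called. MAD2L2, an inhibitor of FZR1, lay at -0.24, and FBXO43, the meiotic relative of FBXO5, at -0.066.

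The spindle checkpoint, which keeps CDC20 from activating the APC/C until all chromosomes are attached, was mixed. Of 8 measured genes, 2 were at least 2-fold lower and 0 higher, against 1.44% and 1.16% of all genes. The median was -0.27. TTK, the kinase at the top of the checkpoint, lay at -2.02. MAD2L1, which binds CDC20 directly, lay at -1.18 ± 0.19 (3 probe sets), and BUB1 at -0.75 ± 0.94 (4 probe sets), with probe sets that ran from -2.08 to -0.035. BUB1B (BUBR1) and BUB3, the partners of MAD2L1 and CDC20 in the mitotic checkpoint complex, lay at -0.035 and -0.46 ± 0.46 (5 probe sets). Those last names were picked after their values were seen. In that complex CDC20, at -2.80, was lower than MAD2L1, BUB1B and BUB3. The gap to BUB1B was -2.77, with 1 probe set for each. BUB1B is the partner nearest 0, so that gap is the largest by choice.

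Other proteins that the APC/C marks for destruction were lower as a list. Of 26 measured genes, 17 were at least 2-fold lower and 0 higher, against 1.44% and 1.16% of all genes. Below 0 lay 25, against 46.3% of all genes, with a median of -1.30. The lowest were DLGAP5 (-4.20), HMMR (-3.24 ± 0.33, 2 probe sets) and NUSAP1 (-2.70 ± 0.59, 2 probe sets), all proteins of spindle microtubules. RRM2, of ribonucleotide reductase, and NEK2, a centrosomal kinase, followed at -2.55 ± 0.80 and -2.35 ± 1.26 (2 probe sets each). KIF11, the motor that separates spindle poles, lay at -2.31 on 1 probe set, and the order of RRM2, NEK2 and KIF11 is not resolved. CCNB1 and CCNA2, both cyclin genes, were named after their values were seen and lay at -1.42 ± 0.094 and -1.46 ± 0.26 (2 probe sets each). PTTG1 would rank below all but 4 of these 26 substrates, and ESPL1 above 20 of them. GMNN, the replication inhibitor geminin, was the only one above 0, at 0.40 on 1 probe set. Several of these genes were already known to be low on these arrays when the list was drawn up, so its count gives no independent support.

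Cohesin, the target of separase, did not share the size of these differences. Of 13 measured genes, 1 was at least 2-fold lower and 0 higher, against 1.44% and 1.16% of all genes. The median was -0.16. The gene called was STAG2, a subunit of the ring, at -1.19 ± 0.72 (3 probe sets, from -1.72 to -0.37), and it was not called with the probe set closest to 0. PDS5B, a release factor, lay at -0.42 ± 1.02 (4 probe sets), a spread larger than its mean, and HDAC8, which deacetylates the ring, at 0.43 ± 0.19 (3 probe sets).

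The SCF, the other ubiquitin ligase family of the cell cycle, lay mostly above 0. Of 9 measured genes, 8 lay above 0, with a median of 0.24. None was 2-fold lower or higher, against 1.44% and 1.16% of all genes. Of all genes, 46.3% lay below 0. FBXW7, the substrate receptor for cyclin E, lay at 0.84 ± 0.23 (3 probe sets) and SKP2, the receptor for the inhibitor p27, at 0.56 ± 0.18 (3 probe sets). CKS1B, the partner of SKP2, was the only one below 0, at -0.58.

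Genes of the G1/S transition lay mostly below 0. Of 14 measured, 13 lay below 0, against 46.3% of all genes, with a median of -0.41. At least 2-fold lower was 1, against 1.44% of all genes. The called members were set apart by size, so their size is not compared with this list. The members below 0 but not called, UBE2S (-0.74), ESPL1 (-0.66) and FBXO5 (-0.64), lay within the range of the G1/S genes, -1.18 to 0.45. MCM5 and MCM6, of the replicative helicase, lay at -1.18 ± 1.01 (2 probe sets) and -0.94, and CCNE2, a cyclin E, at -0.81 ± 0.82 (2 probe sets). The call of MCM5 was lost with the probe set closest to 0. These values move in the same direction as those of CDC20, PTTG1 and UBE2C. In bulk RNA, fewer cells in mitosis and less of a transcript in each cell cannot be told apart, and the part of the cell cycle in the members' differences was not tested. Markers of leukocytes ran from -0.14 (NKG7) to 0.24 (CD3D) over 3 genes, and those of the embryonic kidney line used to pack virus from -0.34 (PAX2) to 0.49 (NEFL) over 4 genes. Basal epithelial genes ran from -0.22 (ITGA6 and KRT5) to 0.41 (KRT14). All 4 fibroblast genes lay above 0, but DCN and COL1A2 were at 0.044 and 0.060. COL3A1 lay at 0.63 ± 0.68 (3 probe sets) and COL1A1 at 0.73 ± 0.76 (4 probe sets), spreads larger than their means. Without probe sets of the _x_at and _s_at kinds, the median of the 3 fibroblast genes left was 0.030. The part of all these markers in the members' values was not tested.

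**Figure D4:**
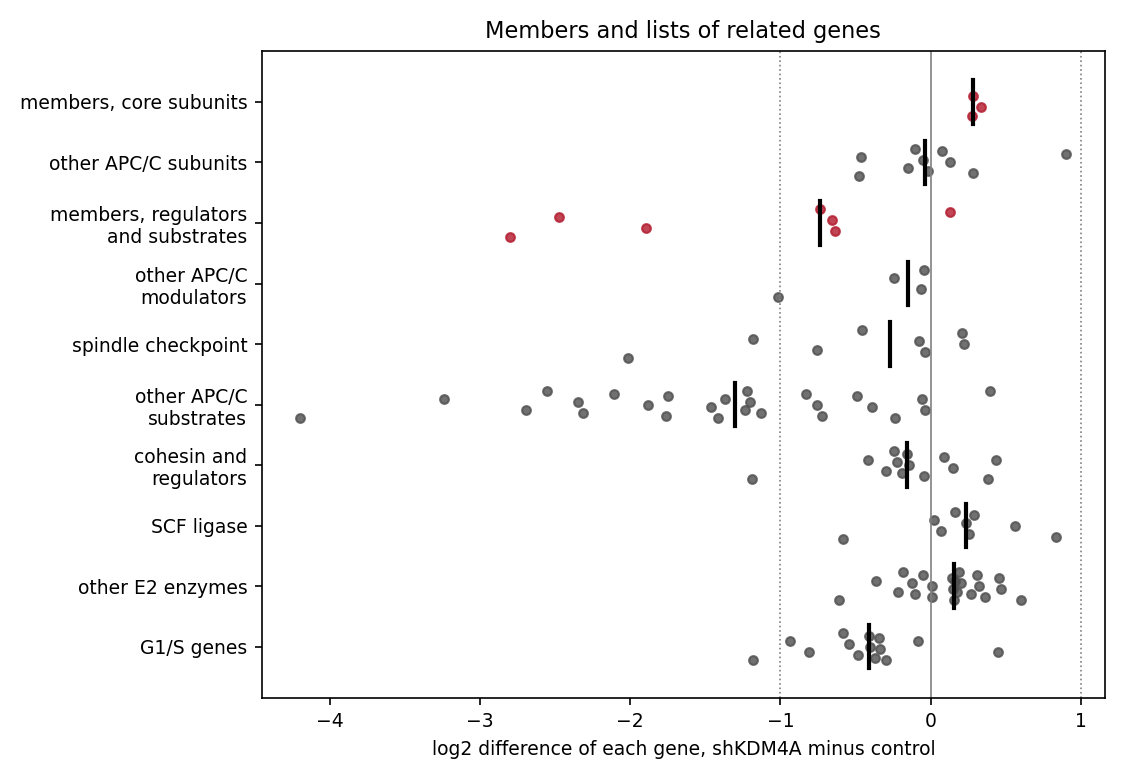
Log2 difference (horizontal axis, shKDM4A minus control) of each measured gene in the members' groups (red) and in 8 lists of related genes (grey), with black bars at the medians and dotted lines at 2-fold. The other subunits have a median of -0.036 and the other substrates one of -1.30.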

How the data were processed

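RNA of 1 shKDM4A and 1 control culture was hybridised to 1 array each, from 3 µg of total RNA, per the labels' protocols. The authors deposited log-scale values, taken here as log2, of 44672 probe sets, made with RMA, a multi-array normalisation, per the submitters' processing notes, which give no version. In every row the values of both arrays summed to 0 within 1e-06, so they had been centred. How and when this was done, the base of the logarithm and possible filters are not stated in the labels or the file. Base 2 was assumed, as RMA uses it.

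Genes were named through the platform annotation, and the Entrez identifiers of 34839 of 34880 single-gene probe sets matched RefSeq. The difference of a gene is the mean over its probe sets (8745 genes have 1), and called genes differ at least 2-fold. No test was possible. The members, the lists, the motifs and the rule for names (all members and KDM4A, and in each list the genes at least 2-fold apart, at most 6, and the 3 farthest from 0) were chosen with earlier results of these data known. Lists were not trimmed. Calculations were tested on simulated data. Python 3.11.15, numpy 2.4.6 and pandas 2.3.3 were used.

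Alternatives dropped probe sets of the _x_at and _s_at kinds, took the median or the probe set closest to 0, subtracted the median difference, or used 1.5-fold and 3-fold rules.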

Additional observations from a re-analysis of the deposited data

How the results depend on the processing

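Values and counts were recomputed under 4 alternatives, and counts also under 2 other size rules. No paired analysis was possible because each group has 1 array, and no replicate could be left out. No value moved by more than the pooled SD between probe sets, and no count by more than 1.5 times, when the median over probe sets was used (61 results) or the median difference was subtracted (61 results), and no called value changed sign under any alternative. Dropping probe sets of the _x_at and _s_at kinds removed CDC20, PTTG1, UBE2S and FBXO5 altogether, by construction, and with FBXO5 the gap of the inhibitor. Of the 6 members left, 1 (UBE2C) was at least 2-fold lower and the median was 0.17, on the other side of 0. The gaps to the core subunits became -0.26 for the co-activators (FZR1 alone), -2.26 for the E2 enzymes (UBE2C alone) and -1.02 for securin and separase (ESPL1 alone). With the probe set closest to 0, ESPL1 lay at -0.27, the gap was -1.46 for securin and separase and -1.48 for the co-activators, 1 spindle checkpoint gene was 2-fold lower, and 166 of all genes were 2-fold lower. That setting also left 0 genes 2-fold lower among the other modulators, cohesin and the G1/S genes, where USP37, STAG2 and MCM5 had been called. At 1.5-fold, 6 members were lower, 774 of all genes were lower and 760 higher, and 1 other APC/C subunit was higher. At 3-fold, 1 checkpoint gene and 10 other substrates were lower, with 81 of all genes lower and 45 higher. Centring removed signal over background, so dim probe sets could not be told from bright ones.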
